A study of Homo sapiens with 6 samples.

Results

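Messenger RNA of the translation initiation and elongation factors was compared between U2932 cells with and without knockdown of ROCK2. The factors were chosen by symbol, as the listed genes that begin with EIF1 to EIF6, EEF1 or EEF2, without the EIF2AK kinases, antisense genes and pseudogenes, and with PABPC1, PABPC4 and PDCD4 added by name. This gave 63 of 20667 listed genes. EIF4EBP1, EIF4EBP2 and EIF4EBP3 were kept although their symbols end as a pseudogene's would, since they encode proteins. U2932 is a human cell line of the activated B-cell (ABC) class of diffuse large B-cell lymphoma, and ROCK2 is a kinase that acts downstream of the GTPase RhoA. In the ROCK2 KD group the cells carried a lentiviral pLKO.1 vector with an shRNA against ROCK2. In the Scr group they carried the same kind of vector with a scrambled shRNA. Both vectors also encode puromycin resistance and tGFP, and stable lines were obtained by sorting and puromycin selection. Each group had 3 RNA-seq libraries, numbered as replicates 1, 2 and 3. The labels do not say whether the replicates were separate infections or cultures, so p-values measure the spread between these samples, which may be technical. The knockdown rests on 1 hairpin, so effects of ROCK2 loss and of the hairpin itself cannot be told apart.

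In cap-dependent initiation, eIF4E binds the mRNA cap, the scaffold eIF4G joins it to the helicase eIF4A and to poly(A)-binding protein, and eIF3 bridges this complex to the small ribosomal subunit, which carries the initiator tRNA on eIF2. After the start codon is found with eIF1 and eIF5, the large subunit joins, eEF1A delivers aminoacyl-tRNAs and eEF2 moves the ribosome along the message. The 4E-BP proteins sequester eIF4E and PDCD4 sequesters eIF4A, and lymphomas driven by MYC are known to depend on eIF4E and eIF4A. Many elongation factor mRNAs start with a terminal oligopyrimidine (TOP) tract, through which mTORC1 and LARP1 set their translation, and MYC binds E-boxes such as CACGTG.

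These start site features are shown first because they divide the factors by a property that the choice of genes did not use. RefSeq (GRCh38.p14) gave a promoter entry for 51 of the 63 factors, each with 250 bases before and 50 bases from the annotated start. A TOP-like start was taken as a C at the annotated start with at least 4 pyrimidines after it. It was present in 12 factors, namely EEF1A1, EEF1B2, EEF2, EIF2A, EIF2D, EIF2S3, EIF3D, EIF3F, EIF3K, EIF3M, EIF4A2 and EIF4B, against 5.14% of the 27305 genes with an entry. The windows of 6 of them follow, and no rule is given for this choice. All 6 factors were lower in ROCK2 KD, and the 4 of the 12 that were higher (EEF1B2, EIF2S3, EIF3K and EIF3M) are not shown. The windows give 15 bases before the start and 15 from it, in the direction of transcription, with the pyrimidine tract in capitals. They lie at chr6:73521018-73521047 on the minus strand (EEF1A1), chr19:3985449-3985478 on the minus strand (EEF2), chr3:186783562-186783591 (EIF4A2), chr12:53006441-53006470 (EIF4B), chr3:150546772-150546801 (EIF2A) and chr11:7987322-7987351 (EIF3F), the last 4 on the plus strand.
EEF1A1: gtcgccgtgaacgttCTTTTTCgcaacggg
EEF2: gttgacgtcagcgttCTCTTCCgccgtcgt
EIF4A2: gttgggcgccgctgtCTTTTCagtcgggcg
EIF4B: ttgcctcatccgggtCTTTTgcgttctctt
EIF2A: tcacccgagcggtttCTCTTTCCgggacaa
EIF3F: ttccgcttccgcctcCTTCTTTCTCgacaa

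The E-box CACGTG, which reads the same on both strands, was present within 250 bases upstream of the start in 12 factors, EEF2K, EIF1B, EIF2B3, EIF3F, EIF3K, EIF4A3, EIF4B, EIF4E, EIF4EBP3, EIF4G1, EIF4H and EIF5A2, against 7.73% of genes with an entry. The 120 bases before the start of 3 of them are given with the E-box in capitals. They show the cap-binding protein EIF4E, its inhibitor EIF4EBP3 and the helicase cofactor EIF4B, at chr4:98929134-98929253 (minus strand), chr5:140547542-140547661 (plus strand) and chr12:53006336-53006455 (plus strand). Whether any of these sites is bound was not measured.
EIF4E: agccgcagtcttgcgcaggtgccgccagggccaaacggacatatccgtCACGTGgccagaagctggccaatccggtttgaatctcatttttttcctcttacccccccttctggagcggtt
EIF4EBP3: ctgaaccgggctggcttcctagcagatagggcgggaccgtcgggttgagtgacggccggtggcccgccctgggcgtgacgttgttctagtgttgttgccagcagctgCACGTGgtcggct
EIF4B: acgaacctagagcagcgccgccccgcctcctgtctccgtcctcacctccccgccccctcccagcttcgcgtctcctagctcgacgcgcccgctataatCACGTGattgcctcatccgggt

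Levels are FPKM as deposited, that is fragment numbers divided by transcript length and by the mapped total of the library, and differences are ROCK2 KD minus Scr on the log2(scaled FPKM + 1) scale, tested with limma in same-numbered pairs. ROCK2 itself was at 2.75, 5.35 and 1.26 FPKM in ROCK2 KD replicates 1, 2 and 3 and at 4.32, 7.21 and 5.78 in Scr. It was lower in all 3 pairs, with differences of -0.53, -0.36 and -1.56, and the groups overlapped as deposited (mean difference -0.81, standard error 0.23, adjusted p = 0.801 by limma). The difference was -0.44 without replicate 3 and -1.04 without replicate 2. The libraries of replicate 1 stood apart from the others. Their FPKM summed to 217309 and 208289, against 438262 to 480612 for replicates 2 and 3. After scaling, 50 of the 59 tested factors were still higher in Scr replicate 2 than in Scr replicate 1, by a median of 0.61 against 0.25 over all genes tested, and 54 were higher in Scr replicate 3. Depth relative to the deepest library was 71.4% to 100%, with the widest gap within a pair in replicate 2 (77.4% in ROCK2 KD, 92.7% in Scr). All 6 B-cell markers were found, with summed FPKM of 316 to 1510 per library. The T-cell, myeloid and fibroblast markers were under 1 FPKM in every library, as were 2 of 3 epithelial markers.

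The factors made up 2.75% to 3.08% of the summed FPKM of a library. In Scr the elongation factor EEF1A1 was the highest, at 1492, 2514 and 3407 FPKM in replicates 1, 2 and 3, followed by EEF2. The lowest tested factor was EIF4E3, a member of the cap-binding family, with a Scr mean of 1.19 ± 0.496 FPKM (SD, n = 3). Tested genes were those with at least 1 FPKM in at least 3 of the 6 libraries, which kept 59 of the 63 factors. The others were EEF1A2, EEF1E1-BLOC1S5, EIF4E1B and EIF1AY. EEF1A2, the form of eEF1A found in muscle and neurons, was at 3.82 and 2.64 FPKM in ROCK2 KD and Scr replicate 1 and at 0.102 to 0.218 in the other libraries. The readthrough EEF1E1-BLOC1S5 reached 2.08 FPKM only in Scr replicate 1, EIF4E1B was listed at 0 in every library, and the Y-linked EIF1AY is not reported.

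**Figure D1:**
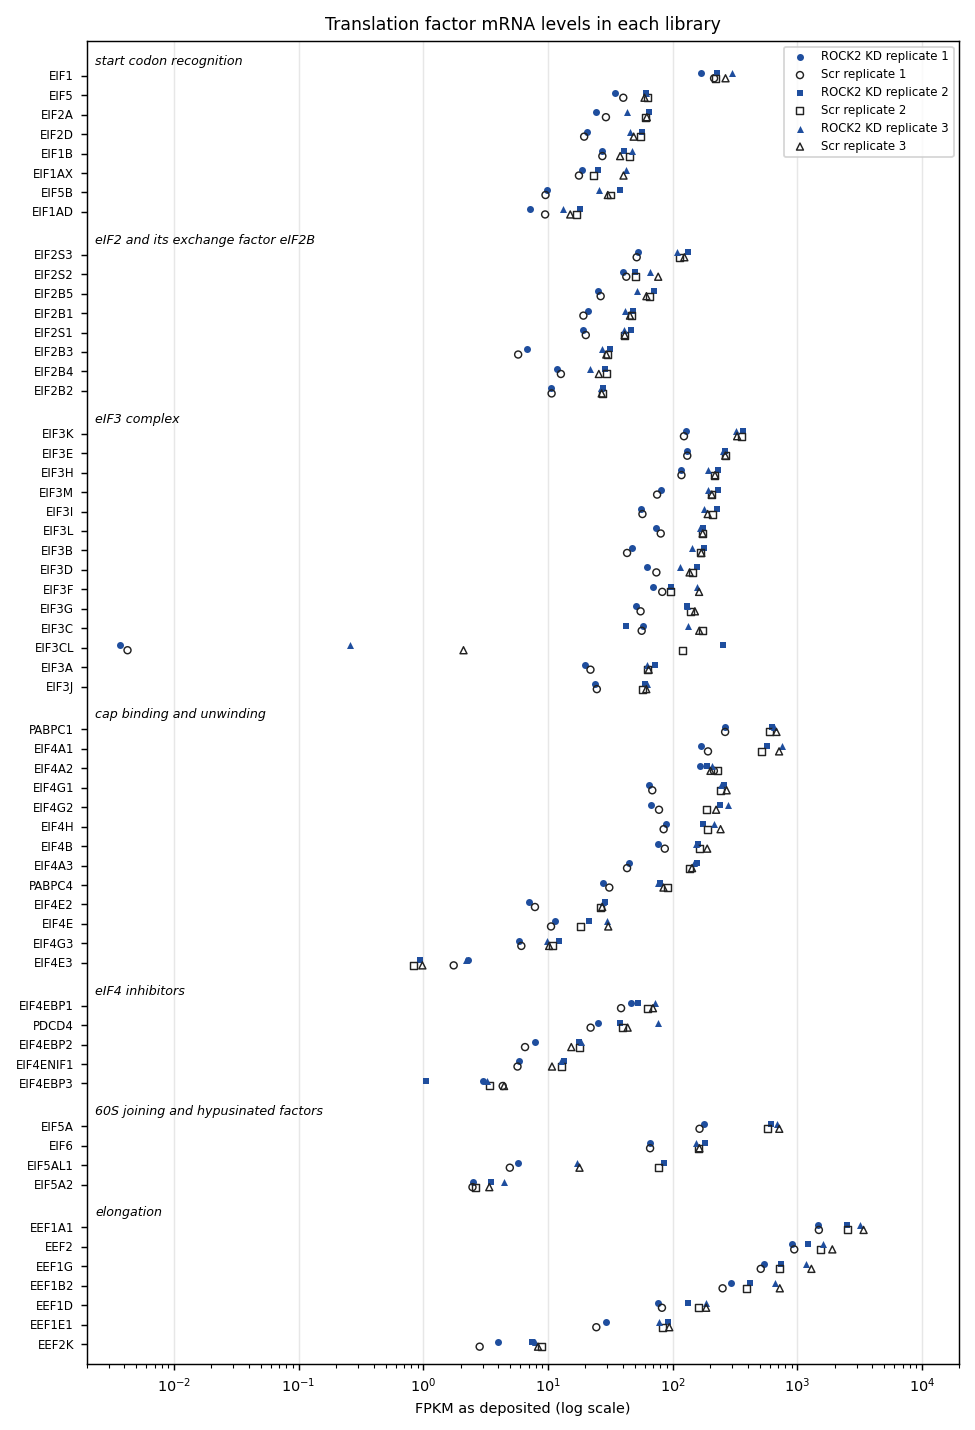
FPKM as deposited (log axis) of the 59 tested factors in each library, by role, with filled symbols for ROCK2 KD, open symbols for Scr, and circles, squares and triangles for replicates 1, 2 and 3. For most factors the circles of replicate 1 lie to the left of the rest, and wide gaps within a pair include those of EIF3C, EIF3CL and EIF4EBP3 in replicate 2 and of EIF4E3 in replicate 3.

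No factor passed the test between ROCK2 KD and Scr after adjustment. At an adjusted p under 0.05 by limma there were 0 of 59 factors, against 0% of the 10526 genes tested, and EIF4EBP3 had the lowest adjusted p of the factors, 0.791. Before adjustment, EIF4EBP3 and EEF2 had a p under 0.05, that is 2 factors (3.39%), against 5.44% of all genes. Without the replicate block 0 factors had such a p, against 0.247% of all genes. Without replicate 1 or without replicate 2 the number was 4 (6.78%), against 8.32% and 5.32% of all genes. With ComBat on the replicate number followed by limma, 11 factors (18.6%) had such a p, against 20.2% of all genes, and 296 genes but 0 factors had an adjusted p under 0.05. Of the 59 factors, 28 were higher and 31 lower in ROCK2 KD (47.5% higher, against 49.4% of all genes). The median difference was -0.00098 over the factors and -0.0022 over all genes, and the median absolute difference 0.06 and 0.09.

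How narrowly the values bound a difference can be read from the 95% limma intervals. For 53 of 59 factors the interval lay within ±0.5 on the log2 scale, and for 32 within ±0.322, which is a ratio of 5 to 4 in either direction. Only 4 factors had a difference beyond 0.25 in size, EIF3C and EIF4EBP3 on the lower side and EIF4E3 and PDCD4 on the higher. After scaling, 0 factors had values that did not overlap between the groups, against 1.68% of all genes. The spread between replicates was wider than the difference within pairs: the median SD of a factor was 0.45 over the Scr libraries and 0.42 over the ROCK2 KD libraries, and the median absolute difference within a pair 0.12.

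**Figure D2:**
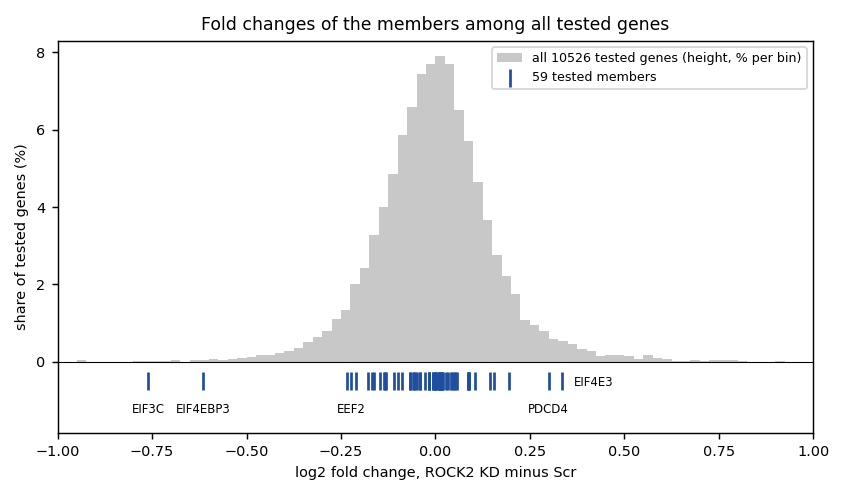
Histogram of the log2 difference, ROCK2 KD minus Scr, of all 10526 tested genes (grey, percent of genes per bin, drawn from -1 to 1), with a blue tick for each of the 59 factors. Most ticks lie under the centre of the histogram, 40 of them between -0.1 and 0.1, and EIF3C and EIF4EBP3 lie farthest to the left.

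The pairs did not share a direction. In replicate 1, ROCK2 KD was the higher library for 26 of 59 factors, and the median difference was -0.01. In replicate 2 the number was 40 and the median 0.08. In replicate 3 the number was 16 and the median -0.10. Of all genes 52%, 49.9% and 50% were higher in these pairs. Under other scalings the number higher was 20 to 27 in replicate 1, 40 to 45 in replicate 2 and 13 to 16 in replicate 3. Replicates 2 and 3 thus lay on opposite sides of level under each scaling, and the count for all 3 pairs together moved with the pair left out, to 24, 17 and 35 of 59 higher without replicate 1, 2 and 3.

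A total of 5 factors were higher in all 3 pairs (8.47%, against 13.1% of all genes), namely EIF1AX, EIF4A3, EIF4E3, EIF4ENIF1 and EIF5A2. Another 10 were lower in all 3 pairs (16.9%, against 12% of all genes), namely EEF1A1, EEF1D, EEF2, EIF2B4, EIF2S2, EIF3E, EIF3G, EIF4B, EIF4EBP3 and PABPC4. Those outside the rule for named genes are listed here after their values were seen.

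**Figure D3:**
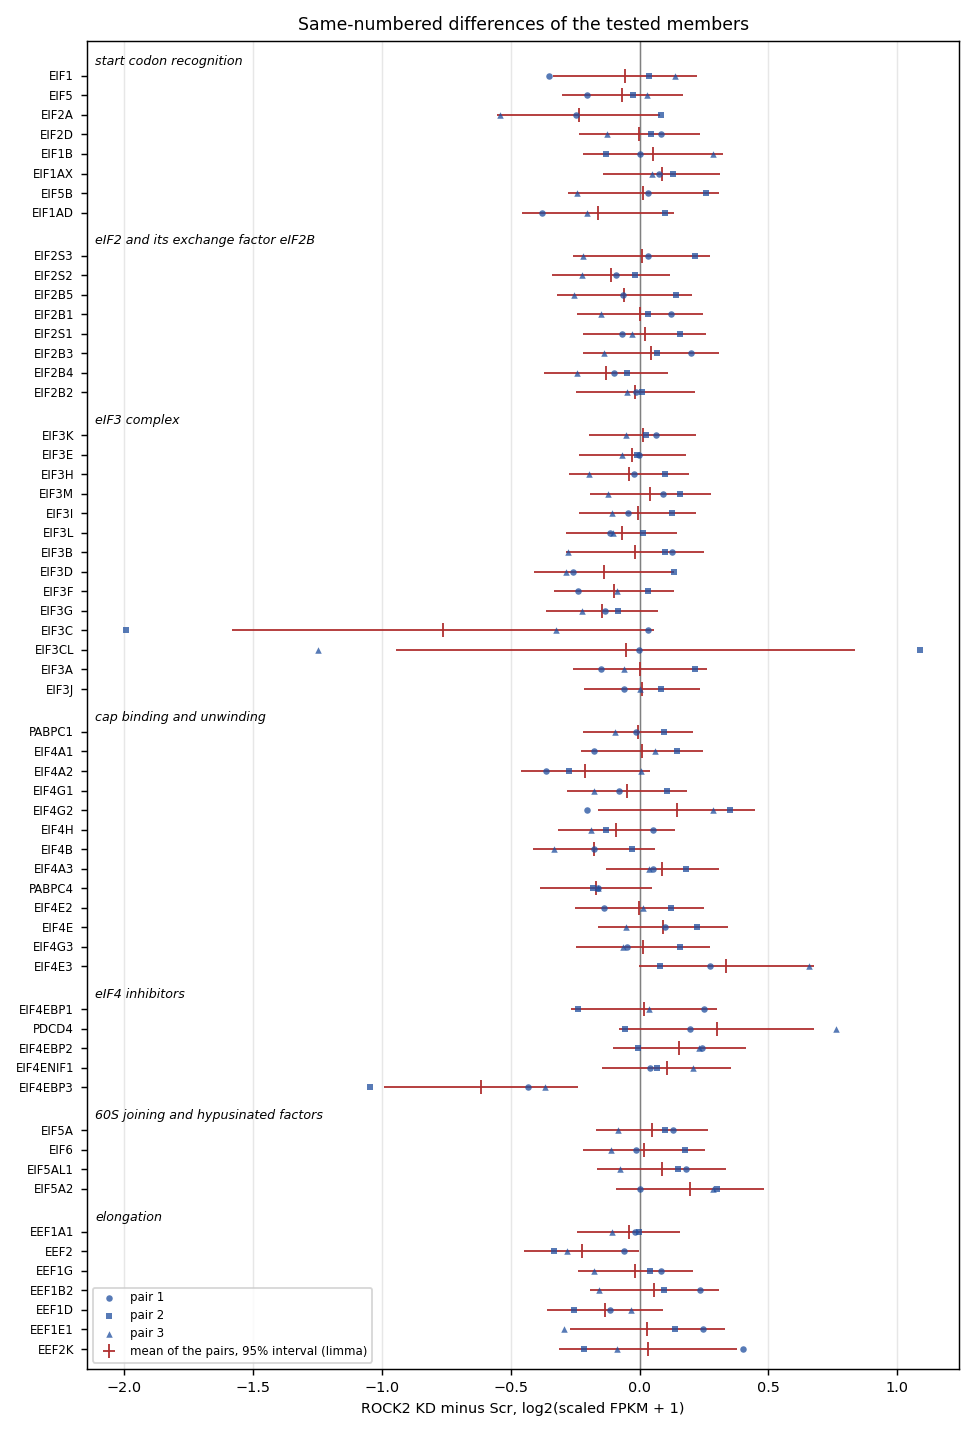
Difference within each same-numbered pair (circle, square and triangle for replicates 1, 2 and 3) of the 59 factors on the log2(scaled FPKM + 1) scale, with the mean of the pairs and its 95% limma interval (red). The intervals of EIF4EBP3 and EEF2 do not include 0, and the triangles of replicate 3 lie mostly to the left of the squares of replicate 2.

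Among the 8 tested factors grouped under start codon recognition, taken broadly to include EIF1AD and EIF5B, 3 were higher and 5 lower. Their median was -0.03. EIF1, which holds the scanning ribosome open until a start codon is met, was the most abundant. It was at 169, 226 and 297 FPKM in ROCK2 KD and at 215, 221 and 266 in Scr. Only replicate 1 was lower, and the difference was -0.06 (95% interval -0.34 to 0.22). EIF2A, which delivers initiator tRNA by a route separate from eIF2 and is a different gene from the eIF2 alpha subunit EIF2S1, was at 24.5, 64.5 and 43.0 FPKM in ROCK2 KD and at 29.2, 61.2 and 62.2 in Scr. It was lower in replicates 1 and 3 and slightly higher in replicate 2, with the smallest p of this group (difference -0.24, standard error 0.13, unadjusted p = 0.122 by limma). Its difference was -0.39 without replicate 2 and -0.08 without replicate 3.

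The subunits of eIF2, which carries the initiator tRNA, and of eIF2B, which recharges eIF2 with GTP, split evenly, 4 higher and 4 lower of 8, with differences from -0.13 to 0.04. EIF2S3, the gamma subunit and the most abundant, had Scr levels of 51.6, 115 and 124 FPKM and ROCK2 KD levels of 52.8, 132 and 108. Its pairs lay on both sides of 0. EIF2B4, the delta subunit of eIF2B, was at 11.8, 28.6 and 21.8 FPKM in ROCK2 KD and at 12.7, 29.7 and 25.6 in Scr, lower in each pair, with differences of -0.10, -0.05 and -0.24 (mean -0.13, standard error 0.10, unadjusted p = 0.240 by limma, and -0.07 without replicate 3).

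Of the 14 eIF3 genes, which encode the scaffold between the small subunit and eIF4G, 4 were higher and 10 lower, with a median of -0.03. The smaller subunit EIF3K was the most abundant and nearly level, at 129, 364 and 323 FPKM in ROCK2 KD and at 123, 360 and 330 in Scr. EIF3C, a core subunit, showed the largest difference of any factor. It was at 57.9, 42.6 and 132 FPKM in ROCK2 KD and at 56.5, 174 and 164 in Scr. Replicate 2 carried the difference, with a log2 value of -1.99 against 0.03 and -0.33 in replicates 1 and 3 (mean -0.76, standard error 0.35, unadjusted p = 0.0638 by limma).

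EIF3C (GRCh37, chr16:28699879-28747048) has a near-identical copy, EIF3CL (chr16:28390900-28415162), and reads from them can be divided between both entries. EIF3CL was at 253 FPKM in ROCK2 KD replicate 2 and at 119 in Scr replicate 2, and at 2.10 or less in the other 4 libraries. The share of the summed FPKM that was listed as EIF3C was 14.4% in ROCK2 KD replicate 2, 59.3% in Scr replicate 2, and at least 98.7% elsewhere. Summed over both entries, the FPKM were 57.9, 296 and 133 in ROCK2 KD and 56.5, 293 and 166 in Scr, and the pair differences 0.03, 0.02 and -0.34. The large difference of EIF3C in replicate 2 was therefore absent from the sum. EIF5A and EIF5AL1 share sequence in the same way, and there 87.9% to 97.6% of the sum was listed as EIF5A in all libraries.

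**Figure D4:**
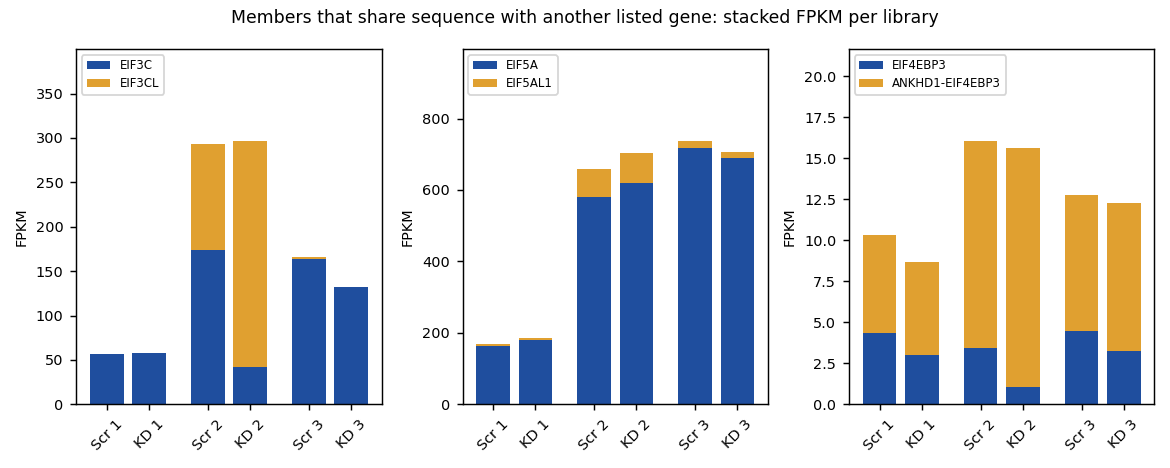
Stacked FPKM in each library for EIF3C with EIF3CL, EIF5A with EIF5AL1, and EIF4EBP3 with the readthrough entry ANKHD1-EIF4EBP3. In replicate 2 the EIF3C bars have nearly equal totals of 293 and 296 with different divisions, and in replicate 2 the totals with EIF4EBP3 are 16.0 and 15.7 while its own part is 3.43 and 1.06.

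Of the 13 tested genes for cap binding and unwinding, 6 were higher and 7 lower. PABPC1, the main cytoplasmic poly(A)-binding protein, was the most abundant and level, at 261, 631 and 648 FPKM in ROCK2 KD and at 264, 595 and 682 in Scr. Its relative PABPC4 (GRCh37, chr1:40026381-40042462) was lower in each pair, at 27.7, 79.2 and 76.7 against 31.1, 90.5 and 84.6 FPKM. The pair differences of -0.16, -0.18 and -0.16 were close to each other, and their mean was -0.17 (standard error 0.09, unadjusted p = 0.109 by limma). An antisense gene, PABPC4-AS1, overlaps its exons, and whether the libraries kept strand is not stated.

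The eIF4A helicases differed in pattern. EIF4A1, the main form, was at 170, 567 and 757 FPKM in ROCK2 KD and at 192, 515 and 716 in Scr, lower in replicate 1 and higher in the others. EIF4A2 (GRCh37, chr3:186500994-186507686) was at 167, 189 and 206 in ROCK2 KD and at 215, 230 and 202 in Scr. It was lower in replicates 1 and 2 and level in replicate 3, with a difference of -0.21 (standard error 0.11, unadjusted p = 0.0872 by limma), and its exons hold snoRNA genes and overlap RFC4 on the other strand. EIF4A3, which belongs to the exon junction complex, was at 44.8, 156 and 149 against 43.2, 138 and 143, a difference of 0.09. That difference was 0.04 without replicate 2 and 0.12 without replicate 3.

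For the cap-binding proteins, EIF4E was at 11.4, 21.4 and 29.8 FPKM in ROCK2 KD and at 10.6, 18.2 and 30.5 in Scr (difference 0.09, 95% interval -0.16 to 0.34), and EIF4E2 had a difference of -0.00098 (95% interval -0.25 to 0.25). The difference of EIF4E was 0.02 without replicate 2 and 0.16 without replicate 3. EIF4E3 (GRCh37, chr3:71724565-71803924) was near the detection filter. It was at 2.29, 0.936 and 2.21 FPKM in ROCK2 KD and at 1.76, 0.830 and 0.985 in Scr. It was higher in each pair, by 0.27, 0.08 and 0.66, and the groups overlapped (mean 0.34, standard error 0.14, unadjusted p = 0.0520 and adjusted p = 0.902 by limma). The scaffolds EIF4G1, EIF4G2 and EIF4G3 had differences of -0.05, 0.14 and 0.01, with the pairs of each on both sides of 0. EIF4G2, which lacks the eIF4E-binding part, was at 67.5, 238 and 277 against 77.9, 187 and 224 FPKM, and its difference lay between 0.04 and 0.32 with one replicate left out.

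Of the 5 inhibitors of eIF4E and eIF4A, 4 were higher and 1, EIF4EBP3, was lower, although EIF4EBP1 was at -0.0037 under quantile normalisation. The major 4E-BP gene was EIF4EBP1, at 46.2, 52.6 and 72.7 FPKM in ROCK2 KD and at 38.6, 62.7 and 69.6 in Scr, with pairs on both sides of 0 and a mean of 0.02 (95% interval -0.27 to 0.30). EIF4EBP2 was at 7.89, 17.7 and 18.5 against 6.56, 17.9 and 15.4, a difference of 0.15 (95% interval -0.10 to 0.41). Activity of these proteins is set by phosphorylation, which RNA does not show.

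EIF4EBP3 had the smallest p of all factors. It was at 3.01, 1.06 and 3.26 FPKM in ROCK2 KD and at 4.34, 3.43 and 4.45 in Scr. As deposited, every ROCK2 KD value was below every Scr value, and after scaling the groups overlapped, since the libraries of replicate 1 are scaled up. The pair differences were -0.43, -1.04 and -0.37, with a mean of -0.61 (standard error 0.16, 95% interval -0.99 to -0.24, unadjusted p = 0.00612 and adjusted p = 0.791 by limma). EIF4EBP3 (GRCh37, chr5:139927247-139929161) shares its exons with the readthrough entry ANKHD1-EIF4EBP3 (chr5:139781493-139929154). The readthrough was at 5.68, 14.6 and 9.03 FPKM in ROCK2 KD and at 5.96, 12.6 and 8.29 in Scr. The sum of both entries was 8.69, 15.7 and 12.3 against 10.3, 16.0 and 12.7, with pair differences of -0.23, -0.02 and -0.07. The share of this sum listed as EIF4EBP3 was 34.7%, 6.75% and 26.5% in ROCK2 KD and 42.1%, 21.4% and 34.9% in Scr. Division of shared reads between the entries and a lower level of EIF4EBP3 transcripts cannot be told apart from these values.

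PDCD4 (GRCh37, chr10:112631553-112659764), which keeps eIF4A out of the cap complex, was at 25.3, 38.1 and 75.8 FPKM in ROCK2 KD and at 22.0, 39.9 and 43.6 in Scr. The ROCK2 KD library of replicate 3 was the highest of the 6, and the other 5 lay between 22.0 and 43.6. The pair differences were 0.19, -0.06 and 0.76, with a mean of 0.30 (standard error 0.16, unadjusted p = 0.103 by limma). EIF4ENIF1, which carries eIF4E into the nucleus and into processing bodies, was higher in each pair by 0.04, 0.07 and 0.21.

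**Figure D5:**
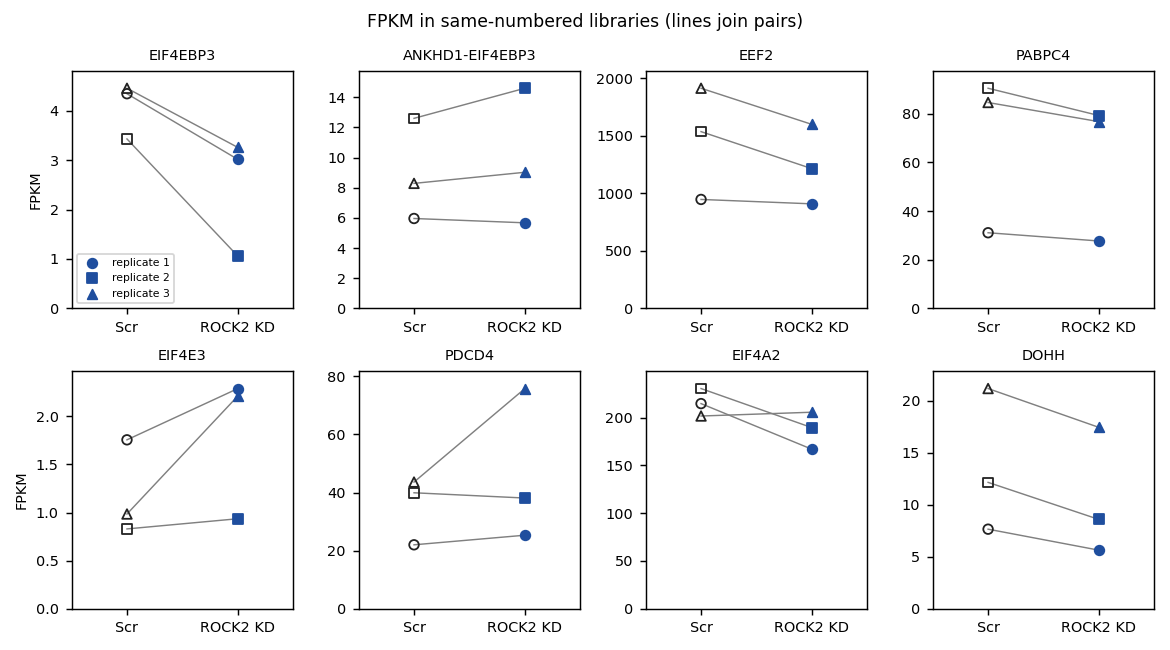
FPKM in Scr (open) and ROCK2 KD (filled) for EIF4EBP3, its readthrough entry, EEF2, PABPC4, EIF4E3, PDCD4, EIF4A2 and the hypusination enzyme DOHH, with lines that join same-numbered libraries and axes that start at 0. The lines of EIF4EBP3, EEF2, PABPC4 and DOHH slope down in 3 of 3 pairs, and PDCD4 differs most in replicate 3, with 43.6 in Scr and 75.8 in ROCK2 KD.

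The next group held EIF5A, EIF5AL1, which shares its sequence, EIF5A2 and the large-subunit factor EIF6. The protein eIF5A carries the amino acid hypusine and eases peptide bond formation. All 4 genes were higher, with differences from 0.02 to 0.20, although EIF5A was at -0.00062 under quantile normalisation. EIF5A and EIF5AL1 are not independent, and both were lower in replicate 3, as was EIF6. EIF5A was at 180, 618 and 688 FPKM in ROCK2 KD and at 165, 581 and 718 in Scr, and the lower value was in replicate 3. The second form, EIF5A2, was at 2.49, 3.51 and 4.43 against 2.48, 2.64 and 3.39. It was higher by only 0.0013 in replicate 1 and by 0.30 and 0.28 in replicates 2 and 3, with a mean of 0.20 (95% interval -0.09 to 0.48).

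The elongation group was taken by symbol and counts the kinase EEF2K and EEF1E1. Of its 7 tested genes, 3 were higher (EEF1B2, EEF1E1 and EEF2K) and 4 lower (EEF1A1, EEF1D, EEF1G and EEF2). EEF1A1 (GRCh37, chr6:74199031-74235310) was at 1473, 2499 and 3215 FPKM in ROCK2 KD and at 1492, 2514 and 3407 in Scr, a difference of -0.04 with a 95% interval of -0.24 to 0.16. That difference was -0.06 without replicate 2 and -0.0097 without replicate 3. EEF2 (GRCh37, chr19:3976054-3985461), the translocase, was at 909, 1214 and 1598 FPKM in ROCK2 KD and at 947, 1536 and 1912 in Scr. The groups overlapped, and each ROCK2 KD library was below its Scr partner, with differences of -0.06, -0.33 and -0.28. The mean was -0.22 (standard error 0.09, unadjusted p = 0.0499 and adjusted p = 0.902 by limma). EEF2K, the kinase that inactivates eEF2, was at 4.0, 7.40 and 7.89 against 2.84, 8.83 and 8.34 FPKM, higher in replicate 1 and lower in the others.

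Ratios of related genes within a library do not depend on scaling between libraries. With 8 ratios and 3 pairs, the exact two-sided sign-flip permutation test cannot go below 0.25. It gave 0.25 for EIF4A2 to EIF4A1, PABPC4 to PABPC1 and EEF2K to EEF2, whose 3 pairs shared a direction, and 0.5 to 1 for the other 5 (Benjamini-Hochberg adjusted 0.667 to 1 over the 8). The log2 ratio of EIF4A2 to EIF4A1 was -0.03, -1.58 and -1.88 in ROCK2 KD and 0.16, -1.16 and -1.83 in Scr, a mean difference of -0.22 ± 0.19 (SD, n = 3), which was -0.12 without replicate 2. It differed far more between replicate 1 and the others than between the groups. The ratio of PABPC4 to PABPC1 was lower in each pair, with a mean difference of -0.17 ± 0.11 (SD, n = 3), which was -0.11 without replicate 2. That of EEF2K to EEF2 was higher in each pair, by 0.55, 0.08 and 0.18, with a mean difference of 0.27 ± 0.25 (SD, n = 3), which was 0.13 without replicate 1. The ratio of EIF4EBP1 to EIF4E, an inhibitor to its target, was 2.02, 1.30 and 1.29 in ROCK2 KD and 1.87, 1.78 and 1.19 in Scr, so EIF4EBP1 exceeded EIF4E per length in all 6 libraries.

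By the start site features, 8 of the 12 factors with a TOP-like start were lower in ROCK2 KD, with a median of -0.07, EIF2D among them at -0.00030, and 14 of the 36 tested factors with an entry and no such start were lower, with a median of 0.01. Factors without an entry, PABPC1, EEF1D, EIF3E and EIF3H among them, are in neither class, and the classes rest on the annotated start only. Within pairs 1, 2 and 3 the medians were -0.04, 0.04 and -0.14 for the 12 and 0.02, 0.10 and -0.07 for the 36, a difference that was not tested. Over all tested genes, 52.5% of the 613 with a TOP-like start were lower (median -0.01), against 49.4% of the 7345 without one (median 0.00). Among the 12, EIF2A (-0.24), EEF2 (-0.22), EIF4A2 (-0.21) and EIF4B (-0.18) had the lowest values over the 3 pairs, with EIF2A at -0.08 without replicate 3, EEF1A1 was nearly level and EEF1B2 was on the higher side (0.06). EIF4B, which stimulates the eIF4A helicase, was at 76.6, 160 and 153 FPKM in ROCK2 KD and at 86.7, 164 and 190 in Scr, and was named after its value was seen. The factors with the E-box had a median of 0.02 and those without it 0.01.

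Genes that act on the factors were taken from 5 fixed lists. Of 45 such genes 44 were tested, and by limma 0 passed at an adjusted p under 0.05 and 1 (2.27%, against 5.44% of all genes) had an unadjusted p under 0.05. That gene was DOHH (GRCh37, chr19:3490819-3500672), which completes the hypusine of eIF5A. It was at 5.64, 8.59 and 17.5 FPKM in ROCK2 KD and at 7.66, 12.2 and 21.2 in Scr, lower in each pair, with differences of -0.39, -0.44 and -0.29, and the groups overlapped (mean -0.37, standard error 0.10, unadjusted p = 0.00883 and adjusted p = 0.801 by limma, unadjusted p = 0.348 without the replicate block). With ComBat followed by limma its difference was -0.29 and passed the adjusted threshold. In the list of hypusination and diphthamide enzymes, which modify eIF5A and eEF2, 2 of 6 were higher, with a median of -0.08. Of 9 termination and recycling genes 8 were higher (median 0.06), of 9 eIF2 kinases and phosphatase subunits 6 (median 0.03), and of 12 genes of mTORC1 and MNK signalling 3 (median -0.06). Of 8 tested cap and tail partners 5 were higher (median 0.08). The range over these lists was from -0.37 for DOHH to 0.22 for CYFIP2, which links eIF4E to the actin regulator WAVE and is named after its value was seen.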

How the data were processed

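The authors aligned paired reads of Nextera libraries to hg19 with STAR and computed the deposited FPKM per gene symbol with Cufflinks, without pooling replicates. The annotation and the strand of the libraries are not given in the sources used here, and the counts behind the FPKM are not used here, and the authors state an approximate range of fragments per sample and no total per library, so depth per library is given relative to the deepest one, from the smallest values of each gene. The authors name ComBat and limma on counts as their own test.

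Here, libraries were made comparable with a factor from the trimmed mean of their log ratios (trimmed shares 0.3 by ratio and 0.05 by level). The pseudocount was 1, which understates the change of low genes. The 10526 genes with at least 1 FPKM in at least 3 of 6 libraries entered limma 3.58.1 (R 4.3.3), which took the replicate number as block and a variance trend, two-sided, with Benjamini-Hochberg adjustment over all of them. The replicate numbers come from the labels, and the authors treated replicates as batches. Deviations from the group means were alike in libraries of the same number (correlations across genes of 0.855, 0.785 and 0.742, against -0.649 to 0.0557 for different numbers). The fit was also run on simulated data, with planted changes larger than the difference of any factor. Its outcome is not reported, so it gives no measure of power at the sizes found here. Python 3.11.15, numpy 2.4.6 and pandas 2.3.3 served for tables, and matplotlib 3.10.9 for plots. Gene positions are from GENCODE 44 lifted to GRCh37, and sequences from RefSeq, GRCh38.p14.

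The members, lists and tests were chosen with earlier results of these data known. Genes named were, in each role, the most abundant and the one with the smallest p, every factor with an unadjusted p under 0.05, the related genes within the EIF1, EIF3C, EIF4A, EIF4E, EIF4G, EIF4EBP, EIF5A, EEF1A and PABPC families, PDCD4, EEF2K, ROCK2, and genes outside the factors with an unadjusted p under 0.05. Alternatives covered the block, ComBat, the pseudocount, the filter, the scaling, the trend, membership and leaving out each replicate.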

Additional observations from a re-analysis of the deposited data

How the results depend on the processing

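The number of factors with an unadjusted p under 0.05 by limma, 2 with pairing by replicate number, was 0 without the replicate block, 11 with ComBat followed by limma (18.6%, against 20.2% of all genes), 1 without the EIF4EBP genes, 1 without EIF3C, EIF3CL, EIF5A, EIF5AL1 and EIF4EBP3 (an alternative chosen after seeing the data), and 2 to 4 with one replicate left out. Over all genes, those with an adjusted p under 0.05 numbered 0 with or without the block, 296 with ComBat, and 0 to 4 with one replicate left out. The lowest adjusted p of any factor lay between 0.0517 (ComBat) and 1 (no block) over all settings, so none was called. Leaving out 1 replicate moved the number of factors higher from 28 to between 17 and 35. Without the block DOHH and ROCK2 also lost an unadjusted p under 0.05 (0.348 and 0.0514), and over all genes 26 in place of 573 had one. The cause of these shifts was not tested.

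The directions of EIF4EBP3, EEF2, PABPC4, EIF4E3, PDCD4, EIF4A2 and DOHH held in every setting in which they were tested, with differences of -0.85 to -0.40, -0.31 to -0.16, -0.20 to -0.13, 0.18 to 0.53, 0.07 to 0.48, -0.32 to -0.13 and -0.42 to -0.29. EIF4E3 was not tested under the filter of at least 1 FPKM in all 6 libraries. DOHH passed the adjusted threshold only with ComBat (-0.29). Values near 0 changed sign. With quantile normalisation these were EIF2S3 (-0.0177), EIF3K (-0.0288), EIF4EBP1 (-0.0037) and EIF5A (-0.00062), and EIF4E2 was 0.0010 with ComBat, 0.0051 without scaling and 0.0039 with median of ratios scaling. With one replicate left out the ranges were -0.156 to 0.0886 for EIF1, -0.0934 to 0.123 for EIF2S3, -0.0136 to 0.0432 for EIF3K, -0.0552 to 0.0387 for PABPC1, -0.10 to 0.15 for EIF4EBP1, -0.0646 to 0.143 for EIF1B, -0.0582 to 0.102 for EIF4A1, -0.063 to 0.0675 for EIF4E2, -0.127 to 0.0142 for EIF4G1, -0.0572 to 0.0539 for EIF4G3, -0.62 to 0.54 for EIF3CL and -0.15 to 0.16 for EEF2K. For the ratios of EIF4EBP1 and EIF4EBP2 to EIF4E they were -0.19 to 0.12 and -0.0408 to 0.231. The reads behind a value are not known, so no counting interval is given for the low values of EIF4EBP3 and EIF4E3.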
